A study of Mus musculus with 2 samples.

Results

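Mir6236, Mir6240, Mir8114, Gm47287, Gm47304, Gm47305, Gm47295 and Gm47299 are 8 of the 2201 miRNA hairpin genes of the GENCODE vM21 annotation. They were selected on measured values of these libraries, namely the spread of their read starts and lengths and the other transcripts that hold the same sequences, so those properties are given below as descriptions without a test. A sequence counted for a hairpin when it matched the sense strand over its full length, or with up to 3 unmatched bases at its 3′ end and at least 18 matched bases. Small RNAs were sequenced from dendritic cells that had been grown for 7 days out of C57BL/6 mouse bone marrow in GM-CSF plus IL-4, followed by LPS. The nuclear library came from the pellet that holds the nucleus and the cytoplasmic library from the cytoplasmic fraction of cells lysed in an NP40 buffer, so both come from the same genotype and treatment. Each fraction had 1 library, so no test of the fractions was possible, and every ratio below compares these 2 libraries.

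A miRNA is cut from a hairpin-shaped precursor, first by Drosha in the nucleus and then by Dicer in the cytoplasm. Its reads therefore tend to begin at a single base of the hairpin and to have nearly the same length, and the bases behind the first one, the seed, pair with target mRNAs. Fragments of longer RNAs begin and end at many places. Mir6240 and Mir6236 are annotated hairpins that resemble stretches of 28S ribosomal RNA, the large RNA of the ribosome. The 5 Gm hairpins lie in genes of 7SL RNA. It forms the core of the signal recognition particle, which guides secreted and membrane proteins to the endoplasmic reticulum. Mir8114 overlaps Glul, the gene of glutamine synthetase.

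The hairpin of Mir6240 (chr5:114851948-114852064, plus strand, GRCm38, GENCODE) is shown because the results turn on its letters. Capitals mark positions at which over 90% of the near-identical sequences in both libraries carried another base. Mir6236 lies at chr9:110281287-110281409 and Gm47287 at chr12:69159437-69159506, both on the plus strand.
Mir6240: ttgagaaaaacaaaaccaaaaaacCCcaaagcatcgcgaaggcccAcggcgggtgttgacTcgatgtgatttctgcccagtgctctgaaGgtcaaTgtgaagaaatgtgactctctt

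RefSeq (GRCm38.p6) gave a mature miRNA for Mir6240, Mir6236 and Mir8114 and none for the 5 Gm hairpins. The seed is in capitals, and the 3 seeds differ. These sequences are shown because the position of the mature miRNA is what the start of the reads is set against.
miR-6240: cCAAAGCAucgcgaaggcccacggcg
miR-6236: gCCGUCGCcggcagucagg
miR-8114: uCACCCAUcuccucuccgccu

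The most abundant matching sequences of each hairpin in either library follow, with unmatched 3′ bases in capitals. They are the sequences whose reads the text below counts.
Mir6240, both libraries: aaagcatcgcgaaggcccG
Mir6236, nuclear: ctgaaaatggatggcgct
Mir6236, cytoplasmic: tgaaaatggatggcgctggagcg
Gm47287, Gm47304 and Gm47305, nuclear: aaggaggggtgaaccggcc
Gm47287, Gm47304 and Gm47305, cytoplasmic: aggtcggaaacggagcaggtc
Gm47295 and Gm47299, nuclear: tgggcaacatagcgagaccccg
Gm47295 and Gm47299, cytoplasmic: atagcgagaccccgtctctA
Mir8114, both libraries: gcagagcggagaatgggagta

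The deposited table listed 2000019 nuclear and 2041383 cytoplasmic reads, so 1 nuclear read was worth 0.50 RPM and 1 cytoplasmic read 0.49 RPM. RPM is a read count scaled so that both libraries have equal totals. snoRNAs, which are nuclear, had 181252 nuclear and 6146 cytoplasmic reads, and the nuclear RNAs Neat1 and Malat1 had ratios of 16.6 and 6.52. The scaRNAs on the same list went the other way, with 3959 nuclear and 4857 cytoplasmic reads. Mitochondrial tRNAs, which lie outside the nucleus, had 1302 nuclear and 3751 cytoplasmic reads, and the mitochondrial rRNAs mt-Rnr1 and mt-Rnr2 had ratios of 0.780 and 0.892. All 6 myeloid miRNAs of the marker list were detected, with 49293 nuclear and 113889 cytoplasmic reads in sum. Among markers of other cells, the liver miRNA Mir122 had 287 nuclear and 24 cytoplasmic reads, the muscle list 141 and 18, the nerve list 1016 and 2125, the epithelial list 89 and 212 and the stromal list 699 and 612. The red cell list had 0 nuclear and 2 cytoplasmic reads and the lymphocyte miRNA Mir150 had 0 and 1, and Mir144 and Mir205 were at 0 in both libraries. Their part in the results below was not tested.

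Together the 8 hairpins had 3171 nuclear and 1300 cytoplasmic reads in 360 distinct sequences, or 0.159% of all nuclear and 0.0637% of all cytoplasmic reads. Their summed nuclear level was 1585 RPM and their summed cytoplasmic level 637 RPM, a ratio of 2.49 (exact 95% interval for counting error 2.33 to 2.66). PCR reads are not independent molecules, so all such intervals cover counting error only. All miRNA hairpins together went the other way, with 40.5% of the nuclear and 74.8% of the cytoplasmic reads. Of the 8 hairpins, Mir6240 and Mir6236 were at least 2-fold higher in the nuclear library with an interval that excluded a ratio of 1, and 0 were at least 2-fold lower. Among the 417 miRNA hairpins with at least 50 reads the same call was made higher for 175 (42.0%) and lower for 54 (12.9%). Among the 182 of these with a RefSeq mature miRNA it was made higher for 19 (10.4%) and lower for 42 (23.1%). The median log2 ratio was 0.98 over the 8 hairpins and 0.21 over the 417, and several of the 8 share the same reads. Hairpins among the 417 share reads too, so these percentages and medians are not over separate sets of reads. For example, Gm22369, Gm22402 and Gm23060 each had 9157 reads at their commonest start.

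The level falls into clear steps. Mir6240 had a nuclear level of 1176 RPM and a cytoplasmic level of 493 RPM, a ratio of 2.38 (2.21 to 2.57). Mir6236 had 189 nuclear and 26 cytoplasmic RPM, the highest ratio of the 8 at 7.30 (5.46 to 9.92). The identical Gm47287, Gm47304 and Gm47305 had 130 nuclear and 65.6 cytoplasmic RPM, a ratio of 1.98 (1.60 to 2.46). Gm47295 and Gm47299 had 70.5 nuclear and 42.1 cytoplasmic RPM, a ratio of 1.67 (1.27 to 2.21). Mir8114 was lowest, with 19.5 nuclear and 9.80 cytoplasmic RPM and a ratio of 1.99 (1.13 to 3.60). The intervals of the last 3 ratios overlapped one another, and that of Mir6236 overlapped none of the other 4. With sequences matched over their full length only, the number called higher was 6, because the 5 Gm hairpins passed and Mir6240 did not.

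**Figure D1:**
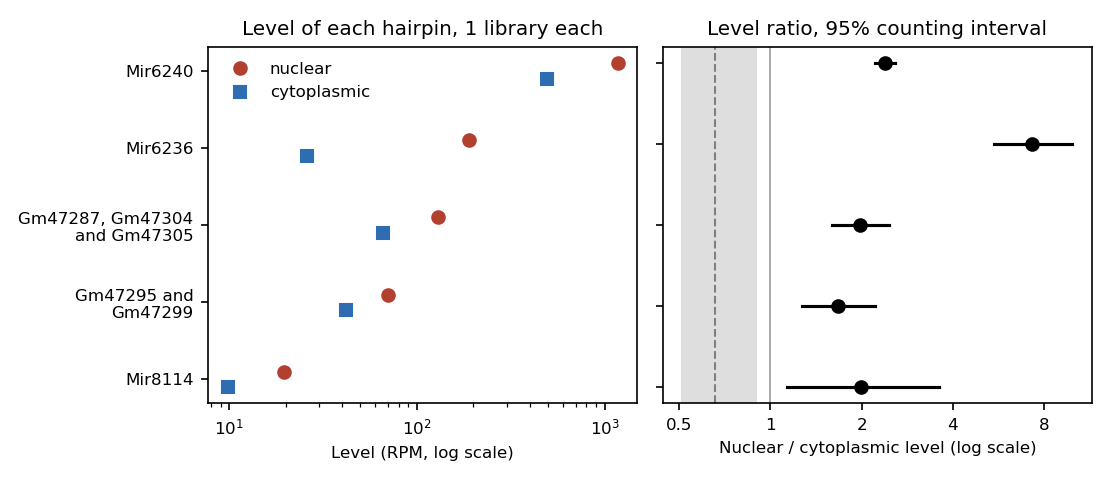
The left panel shows the level of each hairpin in RPM on a log scale, circles for the nuclear and squares for the cytoplasmic library, and the right panel shows the ratio of these levels with its exact 95% counting interval. All 5 ratios lie above 1, while the grey band and dashed line, the quartiles and median of 179 other hairpins with a RefSeq mature miRNA, lie below 1. The 230 other hairpins without one, not drawn, had a median log2 ratio of 3.41, above that of each of the 8. Some of these 230 share the same reads.

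The spread of starts set the hairpins apart from one another. In Mir6236 the reads began at 24 positions and the commonest, position 29, held 16.0% of them. In the Gm47287 group there were 27 start positions, with 24.1% of reads at the commonest, and in the Gm47295 pair 36, with 22.5%. Mir8114 had 9 start positions, with 49.2% at the commonest. Mir6240 went against the description by which it was chosen, since 95% of its counted reads began at position 28. The matching rule limits its starts, because near-identical sequences with an internal substitution are not counted. The median share at the commonest start was 64.4% over the 409 other hairpins with at least 50 reads, 95.5% over the 179 of them with a RefSeq mature miRNA and 48.7% over the 230 without. The lowest shares among the 409 were those of Gm25640 at 12.1%, Gm25190 at 12.6%, Gm23840 at 12.9%, Gm24303 at 13.0% and Gm27634 at 13.1%, so hairpins outside the 8 had starts as widely spread. All of these named hairpins lack a RefSeq mature miRNA. Among the 179 that have one, the lowest share was 25.1%, above those of Mir6236, the Gm47287 group and the Gm47295 pair.

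**Figure D2:**
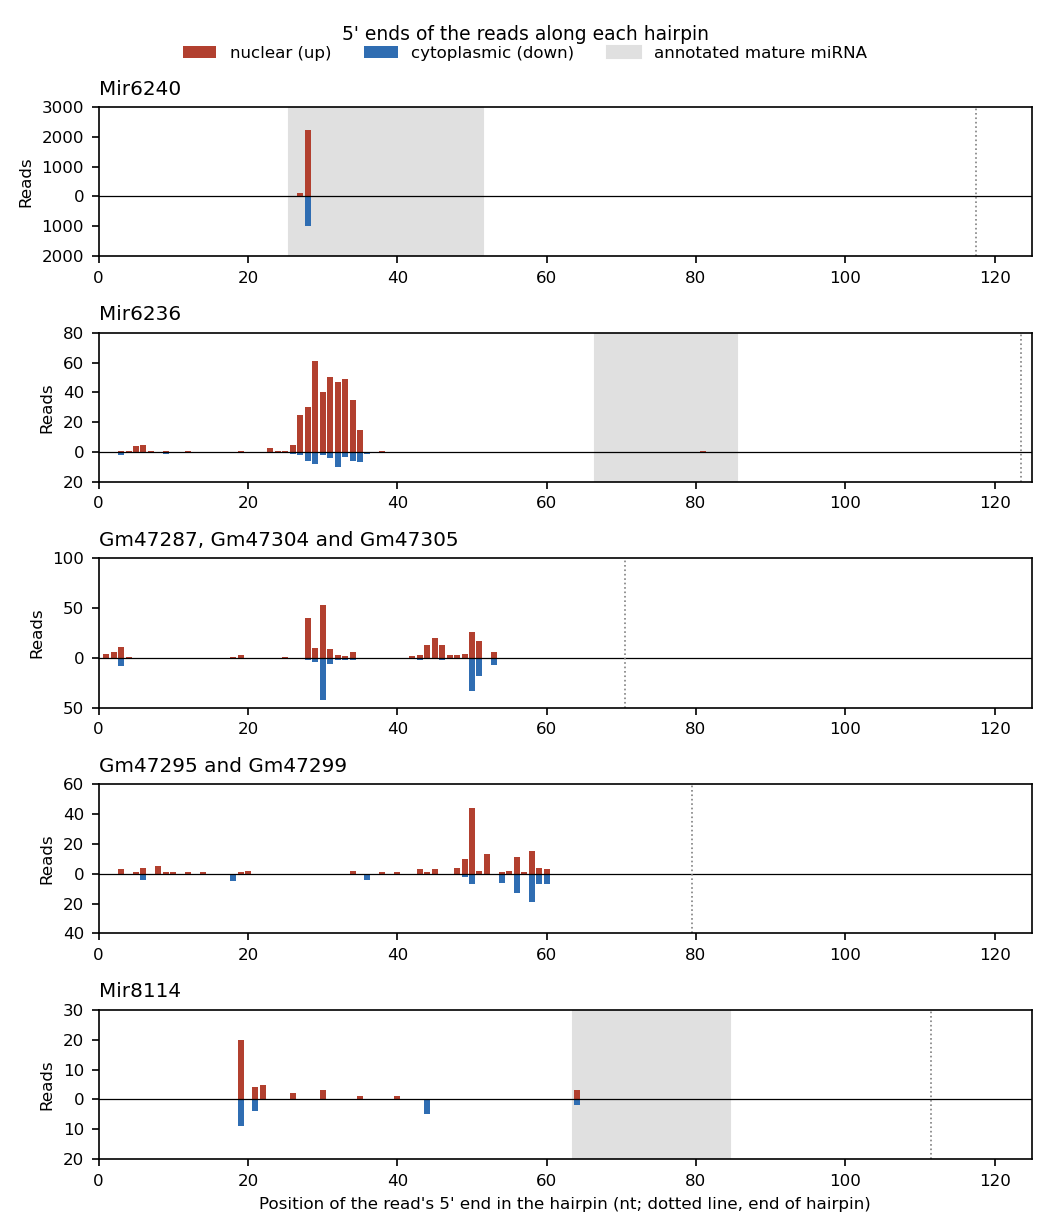
Each panel shows the number of reads by the position of their 5′ end in a hairpin, counted in nt from the hairpin's 5′ end, with nuclear reads drawn upward and cytoplasmic reads downward. The grey span is the annotated mature miRNA and the dotted line the end of the hairpin. Mir6240 has a single tall bar at position 28, whereas nearly all counted Mir6236 reads begin upstream of the mature miRNA at 67 to 85. Reads with an internal substitution are not drawn, which limits the starts that can appear in both hairpins.

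Length split the hairpins in another way. Reads of 20 to 24 nt, the usual size of a Dicer product, made up 78.0% of Mir8114 reads, 70.0% of Gm47295 reads, 57.2% of Mir6236 reads and 52.8% of Gm47287 reads. In Mir6240 they made up 7.17%, and 92.8% of its reads had 18 or 19 nt. Only 3 of the 409 other hairpins had a lower share of 20 to 24 nt than Mir6240. The median share was 80.2% over the 409 and 92.2% over those with a RefSeq mature miRNA. The matching rule limits the share of Mir6240, since its reads from position 28 mostly match only to 45 and may carry up to 3 further bases. Reads that differ only by a G at position 46 still had mostly 19 nt, 74.3% of nuclear and 72.9% of cytoplasmic reads. Those that differ only by a G at position 61 had 34.4% and 73.4% of 20 to 24 nt. Among abundant miRNAs, Mirlet7f-1 had 99.3% in this window, Mir21a 98.1%, Mir140 99.7% and Mir155 81.1%.

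**Figure D3:**
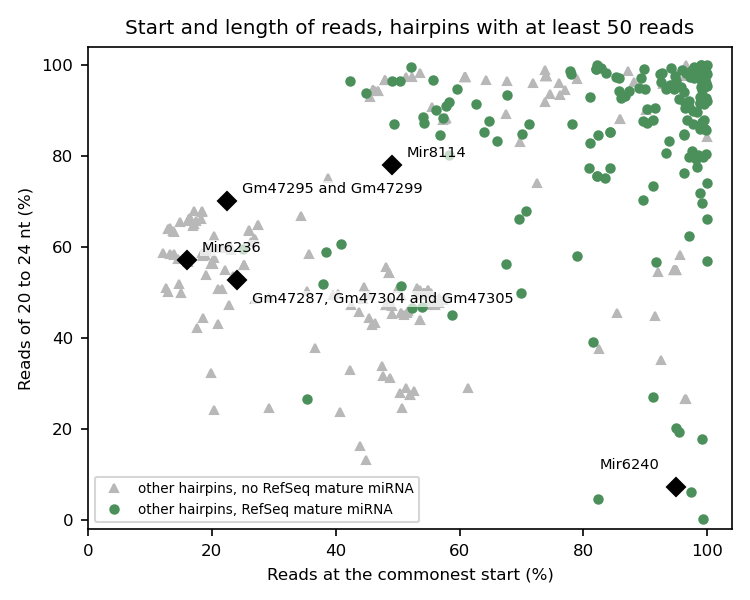
Each point is a miRNA hairpin with at least 50 reads, placed by the percentage of its reads at the commonest start and the percentage of 20 to 24 nt, with both libraries pooled. Diamonds are the 8 hairpins, circles other hairpins with a RefSeq mature miRNA and triangles other hairpins without one. Mir6240 lies alone among the 8 at the lower right, with 95% at a single start and 7.17% of 20 to 24 nt. Both of these values are limited by the matching rule.

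Mir6240 held most of the reads of the 8 hairpins, 2352 in the nuclear and 1007 in the cytoplasmic library, in 44 sequences. The 19-nt sequence aaagcatcgcgaaggcccG alone had 1461 nuclear and 563 cytoplasmic reads. Its 18-nt form without the final G had 638 nuclear and 354 cytoplasmic reads, and the form ending in GC had 82 and 45. All of these begin at position 28, inside the annotated miR-6240 at positions 26 to 51 (chr5:114851973-114851998) and 2 nt after its first base. Reads within 2 nt of the mature 5′ end made up 98.2%. The matching rule favours this, since near-identical sequences nearly always differ at positions 26 and 46. A run of 18 matched bases between these begins at 27 or 28. Of the 3359 reads, 2263, or 67.4%, carried 3′ bases that the hairpin does not have. Of the 409 other hairpins, 3 had a higher share of such reads. The 18- and 19-nt reads are shorter than the annotated 26-nt miRNA, whose last bases they lack. The predicted folding energy of the hairpin was −0.211 kcal/mol per nt, and 406 of the 409 other hairpins had a lower, that is more stable, value.

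The base that follows this 18-nt sequence was nearly always the same. Positions are counted from 1 at the hairpin's 5′ end, and a substitution gives the hairpin's base, the position and the base of the sequence. Among sequences that cover position 46 away from their own 3′ end, A46G was carried by 188 of 199 nuclear and 40 of 41 cytoplasmic reads. The sequences that extend further 5′ also differed from the hairpin. C26A was carried by 420 of 422 nuclear and 36 of 36 cytoplasmic reads, and C25A by 256 of 257 and 24 of 24. Sequences that differ here are not counted as Mir6240 by the matching rule. When every sequence holding the 18-base core aaagcatcgcgaaggccc was counted, whatever its other bases, there were 3015 nuclear and 1041 cytoplasmic reads in 61 sequences. Of these, 73.9% of the nuclear and 93.9% of the cytoplasmic reads began at the core itself. Reads with a longer 5′ end were 788 in the nuclear and 64 in the cytoplasmic library, a ratio of 12.6 (9.73 to 16.5). The 5′ extended forms, shown because they carry this difference with the bases before the core in capitals, were led by the following pair.
extended form 1: AACaaagcatcgcgaaggcccG
extended form 2: AACaaagcatcgcgaaggccc
The first had 232 nuclear and 17 cytoplasmic reads, and the second 139 nuclear and 11 cytoplasmic reads. Their ratios were 13.9 (8.51 to 24.3) and 12.9 (6.99 to 26.4), while reads that begin at the core had a ratio of 2.33 (2.16 to 2.51).

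A far larger set of sequences matched the next stretch of the Mir6240 hairpin at every base but position 61. These T61G sequences numbered 74, with 29194 nuclear and 35787 cytoplasmic reads, or 1.46% of all nuclear and 1.75% of all cytoplasmic reads. The hairpin's own T was present in 28 of the 32534 nuclear and 25 of the 43190 cytoplasmic reads that cover this position, and G in 32475 and 43136. Counting internal substitutions alone, Mir6240 had 59.5 reads with 1 substitution for each exact read. Over the 396 other hairpins with at least 50 exact reads the median was 0.0365 and the highest value 5.27, for Mir378b. Among hairpins with fewer exact reads but at least 1, 3 had higher values than Mir6240: Mir7j with 432, Mir5099 with 367 and Mir3970 with 245. The reversed hairpin, searched in the same way as a measure of chance matches, gave 0 sequences. In contrast to the exact matches, the T61G sequences as a whole were lower in the nuclear library, with a ratio of 0.833 (0.820 to 0.846), a difference short of 2-fold.

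The T61G sequences of the 2 libraries differed in where they began and ended. The leading nuclear form and the leading cytoplasmic form are shown because they make up this difference, with the substituted base in capitals.
T61G form 1: ggcgggtgttgacGcgatg
T61G form 2: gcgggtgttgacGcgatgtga
T61G form 3: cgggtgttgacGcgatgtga
Form 1, with 19 nt, had 9705 nuclear and 2104 cytoplasmic reads, a ratio of 4.71 (4.49 to 4.94). Form 2, with 21 nt, had 2157 nuclear and 9715 cytoplasmic reads, a ratio of 0.227 (0.216 to 0.237). Form 3, with 20 nt, had 1725 nuclear and 7077 cytoplasmic reads, so both longer forms were lower in the nuclear library while the 19-nt form was higher. Reads that begin at position 48 made up 60.0% of nuclear and 26.6% of cytoplasmic T61G reads, and those that begin at 49 made up 20.7% and 39.8%. The ends differed more: 37.4% of nuclear and 9.06% of cytoplasmic reads ended at position 66, while 19% of nuclear and 58.1% of cytoplasmic reads ended at position 69. With a start at 48 in both cases, the form that ends at 66 had a ratio of 4.71 and the form that ends at 69, with 1640 nuclear and 3951 cytoplasmic reads, one of 0.424 (0.400 to 0.449). The 18- and 19-nt T61G reads were 19111 in the nuclear and 9339 in the cytoplasmic library, a ratio of 2.09 (2.04 to 2.14). Those of 20 to 24 nt were 10034 and 26255, a ratio of 0.390 (0.381 to 0.399).

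**Figure D4:**
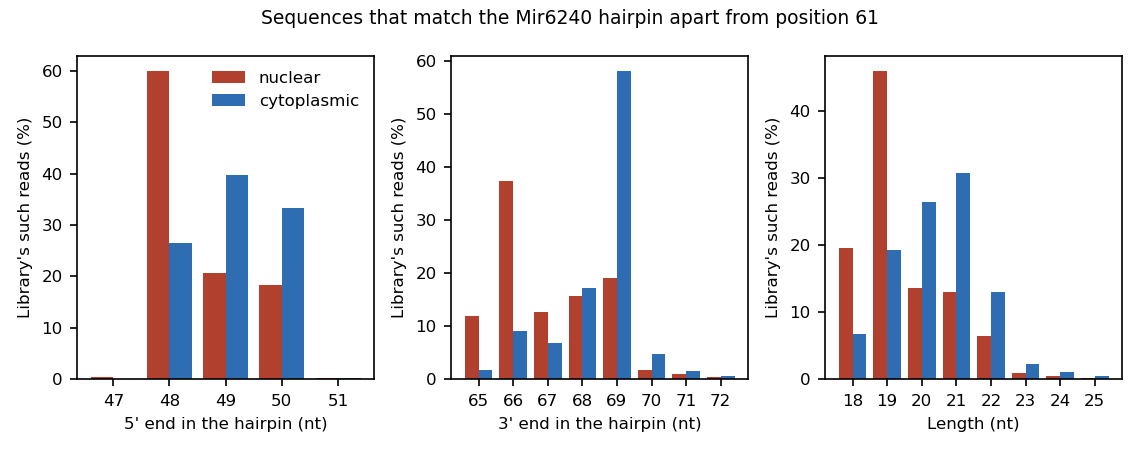
The bars give the percentage of each library's T61G reads by the position of the 5′ end, the position of the 3′ end and the length in nt, nuclear bars left of cytoplasmic ones. Nuclear reads pile up at start 48, end 66 and 19 nt, and cytoplasmic reads at start 49, end 69 and 21 nt.

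Mir6236 had 379 nuclear and 53 cytoplasmic reads in 80 sequences, and it was the most uneven of the 8 between the libraries. Its reads formed a band of starts from position 27 to 35, with 61 nuclear and 8 cytoplasmic reads at position 29, 50 and 4 at position 31 and 49 and 3 at position 33. Each of these starts had more nuclear than cytoplasmic reads. The upper edge of this band follows from the matching rule. Among near-identical reads over position 53, 300 of 302 nuclear and 1255 of 1261 cytoplasmic reads carried another base there. The leading nuclear sequence ctgaaaatggatggcgct had 28 nuclear and 2 cytoplasmic reads, and the leading cytoplasmic sequence tgaaaatggatggcgctggagcg had 13 nuclear and 4 cytoplasmic reads. No sequence therefore carried more than a small part of the total. The annotated miR-6236 covers positions 67 to 85 (chr9:110281353-110281371). Of the 432 reads, 0 began within 2 nt of its 5′ end, which allows a share of up to 0.694%, and 0.231% overlapped it at all. Near-identical reads that cover position 66, 123 nuclear and 157 cytoplasmic, all carried another base there. The matching rule leaves these out, so few reads that run from upstream into miR-6236 could be counted. The median share of reads within 2 nt of a mature 5′ end was 100% over the 179 other hairpins with a RefSeq mature miRNA.

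Sequences close to Mir6236 also differed from it at fixed positions, and most of them had the opposite balance between the libraries. At position 53, G53C was carried by 300 of 302 nuclear and 1255 of 1261 cytoplasmic reads, at position 57 A57C by 91 of 92 and 184 of 188, and at position 66 A66G by 123 of 123 and 157 of 157. The sequences with both G53C and A57C numbered 64 and had 263 nuclear and 1215 cytoplasmic reads, a ratio of 0.221 (0.193 to 0.253). Those with A66G alone had 85 nuclear and 127 cytoplasmic reads, a ratio of 0.683 (0.513 to 0.906). The 29 sequences with G53C alone went the other way, with 72 nuclear and 46 cytoplasmic reads, a ratio of 1.60 (1.09 to 2.37). The leading forms are shown because they reach the substituted positions, with substituted bases in capitals.
G53C and A57C form 1: ggcgctggagcgtCgggCcc
G53C and A57C form 2: gcgctggagcgtCgggCcc
A66G form: acccGgccgtcgccggcagt
Form 1 had 13 nuclear and 345 cytoplasmic reads, and form 2 had 20 nuclear and 246 cytoplasmic reads. The A66G form, which holds the first 15 bases of miR-6236 behind 5 other bases, had 33 nuclear and 82 cytoplasmic reads. All 3 were lower in the nuclear library, whereas the full-length matches without a substitution, which partly overlap the first 2 forms, had 344 nuclear and 43 cytoplasmic reads, a ratio of 8.17 (5.94 to 11.5). Starts at positions 40 and 41 made up 45.8% and 31.7% of the cytoplasmic G53C and A57C reads, against 17.9% and 9.89% of the nuclear ones. Of the A66G reads, 1 nuclear and 2 cytoplasmic reads began within 2 nt of the mature 5′ end. A read carries A66G only if it covers position 66, so it must begin before the mature 5′ end at position 67. The reversed hairpin with up to 2 substitutions gave 8 sequences with 29 nuclear and 2 cytoplasmic reads.

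Counting sequences with 1 or up to 2 substitutions as reads of the hairpins, an alternative chosen after these patterns were seen, turned the direction of the 8 hairpins together. The log2 ratio was −0.15 with 1 substitution and −0.28 with up to 2, against 1.32 by the matching rule. For Mir6240 it was −0.18 and −0.28, against 1.25, and for Mir6236 it was 1.31 and −0.74, against 2.86. For the Gm47287 group it was 0.99 and 0.98, and for the Gm47295 pair 0.36 and 0.35, so the direction of these was kept.

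No read of Mir6240 or Mir6236 matched any other GENCODE transcript on either strand. For the 360 rRNA-related genes searched, 0 of 3359 Mir6240 reads allows a share of up to 0.0893% and 0 of 432 Mir6236 reads one of up to 0.694%. These genes did not include the mature 18S and 28S ribosomal RNAs or their precursor, which were not used here, so a match to 28S ribosomal RNA was not tested. The rRNA-related transcripts that were searched had 69760 nuclear and 47530 cytoplasmic reads.

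The 5 Gm hairpins are segments of 7SL RNA. Gm47287 lies in the 7SL gene Rn7s1, Gm47304 (chr6:69516481-69516550, plus strand) in Rn7s6 and Gm47305 (chr12:69361270-69361339, minus strand) in Rn7s2. These 3 hairpins have the same 70 bases, positions 143 to 212 of 7SL, so their reads cannot be divided among them. Gm47295 (chr12:69159518-69159596, plus strand) lies in Rn7s1 and Gm47299 (chr12:69361179-69361258, minus strand) in Rn7s2. They cover positions 224 to 300, the 3′ end of 7SL, plus 2 and 3 bases beyond it, and the sequence of Gm47299 holds that of Gm47295. All reads of the Gm47287 group, 260 nuclear and 134 cytoplasmic, also matched full 7SL transcripts, and so did 92.5% of those of the Gm47295 pair. Some of the Gm47287 reads matched shorter 7SL-like copies too, such as Gm22567 with 121 nuclear and 55 cytoplasmic reads.

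Within the Gm47287 segment, single starts differed in their balance between the libraries. At position 28 there were 40 nuclear and 2 cytoplasmic reads, whereas 2 bases on, at position 30, there were 53 nuclear and 42 cytoplasmic reads. At position 45 there were 20 nuclear and 0 cytoplasmic reads, and at position 50 there were 26 and 33. Neighbouring starts therefore had unlike shares of nuclear reads. The leading nuclear sequence aaggaggggtgaaccggcc had 26 nuclear and 7 cytoplasmic reads, a ratio of 3.79 (1.60 to 10.3). The leading cytoplasmic sequence aggtcggaaacggagcaggtc, which ends at the last base of the hairpin, had 4 nuclear and 20 cytoplasmic reads, a ratio of 0.204 (0.0507 to 0.609). With 394 reads in 103 sequences, most single forms had too few reads to be compared.

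In Gm47295 and Gm47299 the reads gathered near the 3′ end of 7SL. Position 50 held 44 of 141 nuclear reads, 31.2%, and 7 of 86 cytoplasmic reads, 8.14%. At position 58 there were 15 nuclear and 19 cytoplasmic reads. The leading nuclear sequence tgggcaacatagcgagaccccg had 12 nuclear and 0 cytoplasmic reads, and the leading cytoplasmic one, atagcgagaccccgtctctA, had 0 nuclear and 5 cytoplasmic reads. Here 37.4% of the reads carried unmatched 3′ bases, against a median of 8.07% over the 409 other hairpins. In human cells, newly made 7SL RNA ends in a run of U, which is trimmed and closed with a single A. Reads that hold positions 289 to 299 of 7SL were sorted by the bases after position 299. At least 1 A, alone or behind T only, ended 27 of 44 nuclear reads, 61.4% (exact 95% interval 45.5 to 75.6). A nuclear read with GAA there was not counted among these. In the cytoplasmic library 39 of 55 reads had such an end, 70.9% (57.1 to 82.4), and these intervals overlap. Ends with T only or with no further base made up 29.5% of the nuclear and 21.8% of the cytoplasmic reads. Because of these ends the ratio of the pair depended on the matching, with 105 nuclear and 37 cytoplasmic reads, a ratio of 2.90 (1.97 to 4.34), over full-length matches alone.

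By the matching rule, the hairpin segments did not stand apart from the rest of 7SL in their ratio. Over full-length matches alone the ratio of the Gm47295 pair was 2.90 (1.97 to 4.34), and no such value is given here for the rest of 7SL. Rn7s1 as a whole had 767 nuclear and 429 cytoplasmic reads, a ratio of 1.82 (1.62 to 2.06). Reads outside both segments were 376 and 216, a ratio of 1.78 (1.5 to 2.11), which overlaps the intervals of both hairpin groups. The Gm47287 segment held 33.9% of the nuclear and 31.2% of the cytoplasmic 7SL reads, and the Gm47295 segment 17.1% and 18.4%. The remaining 49.0% of nuclear and 50.3% of cytoplasmic reads lay in parts of 7SL that these 5 hairpins do not cover or across an edge of one.

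**Figure D5:**
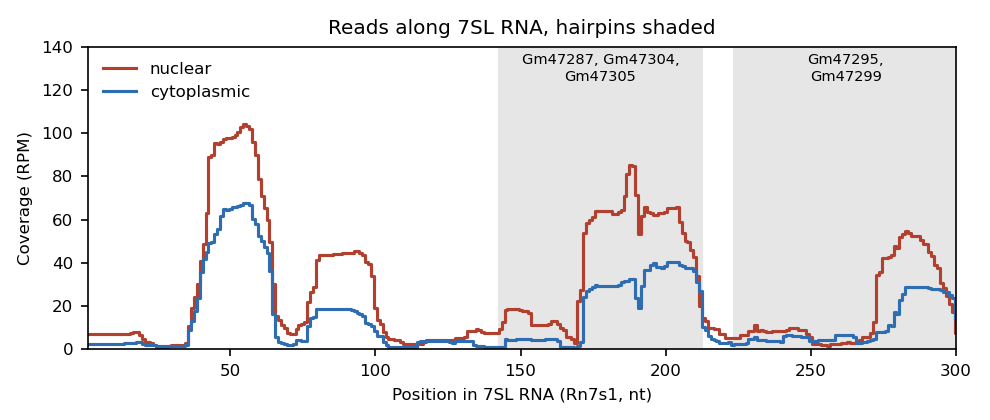
The lines give the coverage of 7SL RNA (Rn7s1) in RPM by position in nt, red for the nuclear and blue for the cytoplasmic library, with the 2 hairpin segments shaded. Both libraries rise and drop at much the same places, and the tallest peak lies outside the hairpins, before position 100.

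Mir8114 (chr1:153899926-153900036, plus strand) overlaps the start of Glul, and Teddm2 on the opposite strand. The first base of the transcript Glul-201 (chr1:153899944) is position 19 of the hairpin, so 93 of its 111 bases are Glul exon. All 59 reads, 39 nuclear and 20 cytoplasmic, also matched Glul, and none reached upstream of its first base. That base was the commonest start, with 20 nuclear and 9 cytoplasmic reads, 29 of 59 in all. The leading sequence gcagagcggagaatgggagta begins there and had 9 nuclear and 8 cytoplasmic reads. At position 44 there were 0 nuclear and 5 cytoplasmic reads. The annotated miR-8114 covers positions 64 to 84 (chr1:153899989-153900009), and 3 nuclear and 2 cytoplasmic reads began at its first base. These 5 reads, 8.47% of the 59, were all that began within 2 nt of it. Over the whole transcript Glul-201 there were 52 nuclear and 28 cytoplasmic full-length matches, of which 33 and 17 lay in the 93 bases of the hairpin. That is 53.8 reads per 100 nt inside the hairpin and 1.11 per 100 nt over the other 2699 bases. The ratio was 1.98 (1.07 to 3.79) inside and 1.76 (0.797 to 4.10) outside. At this depth no difference in ratio between the segment and the rest of the mRNA was detectable, whereas the density of reads did differ.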

How the data were processed

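Small RNAs of a nuclear and a cytoplasmic fraction were measured, 1 library each. The authors' deposited table gives 538100 distinct sequences of 18 to 39 nt in RPM. The build was mm10 and the tool named is CASAVA, per the submitters' processing notes. Trimming, alignment and filters were not given in the sources used here. Columns were taken as nuclear or cytoplasmic by the last letter of their names. In both, 100% of values were whole multiples of 1 read within 0.1 read, which gave the reads.

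Sequences were matched to the 141767 transcripts of GENCODE vM21 without mismatches. Ratios are of RPM, and log2 ratios add 0.5 reads to each count, so changes at few reads are understated. A call needed a 2-fold difference, an exact conditional binomial 95% interval without 1, and at least 50 reads over both libraries. Shares have exact Clopper-Pearson intervals, and a count of 0 allows 3 reads. Internal substitutions exclude the last 3 bases of a read. Folding used ViennaRNA 2.7.2, and intervals SciPy 1.17.1. Matching and calls were tested on simulated data. Alternatives varied matching, shared sequences, scaling, weighting, minimum and pseudocount. The members and all lists were chosen with earlier results of these data known. All members are named, with their leading sequence in each library and mature miRNA, and for comparison 4 abundant miRNAs and the 5 hairpins with the lowest start share. Other forms shown were chosen after their values were seen. Full hairpin sequences other than that of Mir6240 are not reported here.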

Additional observations from a re-analysis of the deposited data

How the results depend on the processing

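Among 150 alternatives over all results, 101 kept their direction and size or call, 39 moved and 5 reversed. The count called higher rose in 3 and fell in 2. Of the 101, 15 were shares in rRNA-related transcripts, 0 for every hairpin in a search that lacked the large RNA of the ribosome. Another 15 were shares in other transcripts and 11 the count called lower, which changed little or not at all. The 101 therefore says little about the ratios. For the ratios of single hairpins or groups, 30 alternatives were kept, 10 moved and 3 reversed. The log2 ratio of the 8 hairpins together, 1.32 as reported, was 2.20 when scaled to the total of miRNA hairpin reads, 1.55 by the median of ratios over hairpins and 1.21 without the most abundant sequence of each. It was −0.15 with sequences 1 substitution from a hairpin and −0.28 with up to 2. For Mir6240 these substitution alternatives, chosen after seeing the data, gave −0.18 and −0.28, and for Mir6236 up to 2 substitutions gave −0.74. The number of hairpins called higher, 2 as reported, was 6 with full-length matches only, 8 when scaled to miRNA hairpin reads, 6 by the median of ratios, 1 with 1 substitution and 0 with up to 2, and the number called lower was 0 under each. These scalings shifted the median of all hairpins by 0.89 and 0.23 on the log2 scale. Full-length matching gave Mir6240 a log2 ratio of 0.90. Without sequences held by other transcripts, the Gm47287 group and Mir8114 had no reads left. No paired analysis was possible because each fraction has 1 library, and leaving out a replicate was not possible for the same reason. Depth limits Mir8114 most, with 59 reads.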
